A study of Homo sapiens with 24 samples.

Results

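The insulin-like growth factor (IGF) axis was described here by 10 genes out of 65364 gene symbols in the 4 deposited tables. They were the insulin receptor substrate genes IRS1, IRS2 and IRS4, the receptor genes IGF1R, INSR and IGF2R, the binding protein gene IGFBP3, and the mRNA-binding protein genes IGF2BP1, IGF2BP2 and IGF2BP3. The 10 genes were looked up by symbol in every table, but the set was chosen by measured values, since IRS4 and IGF2BP1 had been seen at appreciable levels only in the libraries labelled KIF20A overexpression. The difference between those libraries and their empty-vector controls is therefore given for the 10 genes as a description, without a test. Rows were found for 8 of the 10 genes in the Hs578T table, 9 in the HCC70 table and all 10 in both MDA-MB-231 tables.

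RNA-Seq was performed on 24 libraries in 8 groups of 3 replicates from 3 established triple-negative breast cancer (TNBC) cell lines. Wild-type Hs578T and HCC70 cells had been sorted into breast cancer stem-like cells (BCSCs), gated as CD24-CD44+ and ALDH+, and non-BCSCs. MDA-MB-231 cells carried either a control sgRNA (sgCtrl) or an sgRNA against KIF20A (KIF20A sg1), and in a separate experiment either an empty vector (EV) or a KIF20A overexpression construct (KIF20A OE). MDA-MB-231 cells were made by lentiviral infection and puromycin selection, and all libraries are bulk RNA, in which fewer cells of a type and less RNA per cell cannot be told apart. KIF20A, a mitotic kinesin and the target of both manipulations, is named only as a check of the labels.

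IGF1, IGF2 and insulin signal through the tyrosine kinase receptors encoded by IGF1R and INSR, which phosphorylate IRS adaptors that recruit PI3K. IGFBP3 is a secreted protein that holds IGFs in the extracellular fluid, and IGF2R, also the cation-independent mannose 6-phosphate receptor, carries IGF2 and lysosomal enzymes into the cell without a kinase. The IGF2BP proteins bind mRNAs, IGF2 among them, and IGF2BP1 and IGF2BP3 are oncofetal genes that most adult tissues express little.

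Each Hs578T library held 28189500 to 33715701 recovered reads and each HCC70 library 24681218 to 33559417. The range was 41424338 to 51018667 for sgCtrl and KIF20A sg1, and 15971297 to 22182293 for EV and KIF20A OE. The depletion table is in scaled reads, a unit close to CPM. KIF20A was 101.1, 143 and 124 CPM in EV and 1348, 269 and 896 CPM in KIF20A OE, so the groups did not overlap. In the depletion table KIF20A was 153, 173 and 156 scaled reads in sgCtrl and 122, 145 and 91.1 in KIF20A sg1. Every KIF20A sg1 library was thus below every sgCtrl library, as groups did not overlap for 13% of all genes. The difference of -0.45 (SE 0.16) did not pass the test (adjusted p = 0.69, limma), which 0 of 12852 genes passed in this table. The libraries labelled KIF20A OE went against the markers of their cell line. Of 12 genes that mark mesenchymal breast cancer cells such as MDA-MB-231, 12 of 12 were lower than in EV, their summed level was 442 to 897 CPM against 9779 to 10508 CPM, and the CD44 level was 0.13, 0.32 and 1.23 CPM against 788, 615 and 523 CPM. Of 14 kidney development and neuronal genes tested, 11 were higher and 2 lower, with a summed level over the list of 16 of 1433 to 1727 CPM against 298 to 323 CPM, and PAX2, NEFL and INA were at 0 in every EV library. The basal epithelial list of 9 summed to 375 to 494 CPM against 1732 to 2022 CPM, with KRT5 absent from the table. These markers move with every difference between the libraries labelled KIF20A OE and EV below, and their part in those differences was not tested. In the depletion experiment the mesenchymal sum was 9343 to 10892 in sgCtrl and 8967 to 9665 in KIF20A sg1. In HCC70 all 9 basal epithelial genes were at 1 TPM or more. AXL was not listed there, but 9 of the 12 mesenchymal genes were at 1 TPM or more in every HCC70 library. Their list summed to 7497 to 8842 TPM in HCC70 non-BCSCs and 7404 to 8224 TPM in BCSCs.

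The range of levels is shown per transcript length, as TPM in the sorted lines and as CPM, or scaled reads, per kb of the canonical transcript in MDA-MB-231, and each table was normalized on its own.

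**Figure D1:**
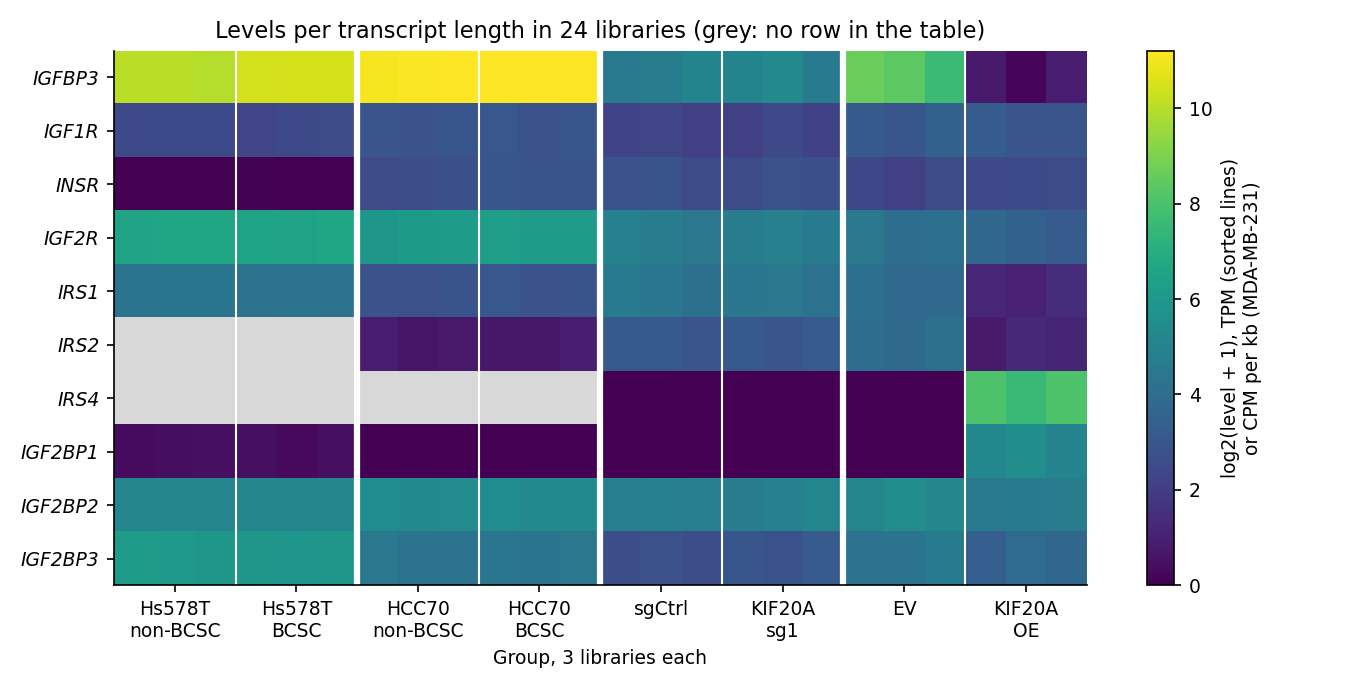
Colour gives log2(level + 1) per transcript length for the 10 genes (rows) in 24 libraries (columns, 3 per group), with grey where the table has no row. IRS4 is coloured above 0 in the 3 KIF20A OE libraries only, while IGFBP3 is high in every sorted library and among the lowest in KIF20A OE.

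The promoters of the IRS genes and of IGFBP3 are shown because, of the members with an entry, these 4 had the largest ratios between the libraries labelled KIF20A OE and EV. They are the 250 bases before the transcription start in RefSeq on GRCh38.p14, each read on the minus strand, with GC boxes (GGGCGG or its reverse complement CCGCCC, overlaps counted) in capitals. They lie at chr2:226799821-226800070 (IRS1), chr13:109786584-109786833 (IRS2), chrX:108736564-108736813 (IRS4) and chr7:45921273-45921522 (IGFBP3). The IGFBP3 stretch falls inside the span of the gene in GENCODE, 45912245 to 45921874, so RefSeq and GENCODE place the start of this gene differently. IGF2BP1 has no entry in the promoter table.
IRS1: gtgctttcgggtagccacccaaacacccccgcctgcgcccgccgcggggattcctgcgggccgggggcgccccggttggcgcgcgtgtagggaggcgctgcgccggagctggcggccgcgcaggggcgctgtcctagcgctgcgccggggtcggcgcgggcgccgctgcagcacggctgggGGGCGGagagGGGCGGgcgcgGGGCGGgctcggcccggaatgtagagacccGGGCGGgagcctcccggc
IRS2: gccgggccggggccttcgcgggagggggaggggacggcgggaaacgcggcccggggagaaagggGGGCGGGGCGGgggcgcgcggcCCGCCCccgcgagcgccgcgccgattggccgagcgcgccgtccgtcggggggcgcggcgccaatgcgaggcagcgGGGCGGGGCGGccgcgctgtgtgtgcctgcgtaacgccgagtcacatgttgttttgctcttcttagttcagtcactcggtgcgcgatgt
IRS4: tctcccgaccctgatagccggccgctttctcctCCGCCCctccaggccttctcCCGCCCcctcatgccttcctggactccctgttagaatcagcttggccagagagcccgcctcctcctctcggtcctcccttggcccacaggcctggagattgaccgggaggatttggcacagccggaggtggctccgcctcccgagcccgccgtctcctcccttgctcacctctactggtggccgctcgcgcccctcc
IGFBP3: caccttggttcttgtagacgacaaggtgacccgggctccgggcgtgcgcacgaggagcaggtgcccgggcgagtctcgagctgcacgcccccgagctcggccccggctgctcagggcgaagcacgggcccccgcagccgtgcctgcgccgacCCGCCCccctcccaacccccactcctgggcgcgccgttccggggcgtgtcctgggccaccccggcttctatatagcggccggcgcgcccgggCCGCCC
A GC box was present in 42.6% of 35116 promoters of the same length, and was counted 4 times in IRS1, 5 times in IRS2, 2 times in IRS4 and 2 times in IGFBP3. The IRS1 and IRS2 promoters held 39 and 42 CpG dinucleotides, that of IRS4 held 16 and that of IGFBP3 held 32, against a median of 11 over all promoters. Members whose promoters are not shown had 48 (IGF1R), 33 (IGF2R), 32 (IGF2BP2), 28 (INSR) and 15 (IGF2BP3). The GC content was 80.8% in IRS1, 76.4% in IRS2, 68% in IRS4 and 76% in IGFBP3, where the median promoter had 58%. None of the 4 held TATAAA, found in 10.7% of promoters on either strand, or the E-box CACGTG, found in 6.34%.

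IGFBP3, on chromosome 7 from 45912245 to 45921874 on the minus strand of GRCh38, gave the one change of a member in the sorted lines. In Hs578T it was 1052, 1040 and 980 TPM in non-BCSCs and 1400, 1440 and 1432 TPM in BCSCs, with every BCSC library above every non-BCSC library. The rise was 0.48 on the log2 scale of TPM + 1 (SE 0.05, 1.39-fold, limma, adjusted p = 0.0017, higher in 3 of 3 BCSC libraries), and leaving out each library in turn gave 0.44 to 0.50. Over all genes 7.15% of 13324 passed this test and 29% had groups that did not overlap. In HCC70, IGFBP3 was already at 2146, 2254 and 2306 TPM in non-BCSCs and stood at 2326, 2341 and 2356 TPM in BCSCs. These groups did not overlap, as for 30.9% of all genes, but the difference did not pass the test (0.07, SE 0.07, adjusted p = 0.58). The effect in HCC70 was lower than in Hs578T by a tested difference of -0.41 (SE 0.07, interaction in limma over 12 libraries, adjusted p = 0.0082, or 0.058 with the replicate number as a block), in a test that 7.11% of 11667 genes passed. The lines come from tables that were normalized separately, so cell line and table cannot be told apart in that comparison.

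IGFBP3 also varied between the control cells of the MDA-MB-231 experiments. It was 57.6, 67.3 and 83.1 scaled reads in sgCtrl and 1046, 880 and 517 CPM in EV, values from tables normalized separately and not tested against each other. KIF20A sg1 had 83.3, 99.3 and 62.6, which overlapped sgCtrl (0.23, SE 0.18, limma, adjusted p = 0.79). IGFBP3 in the cells labelled KIF20A OE was 2.00, 0.36 and 2.09 CPM, all below the lowest EV library, and the EV mean was 549 times the KIF20A OE mean (710 times after scaling by the median of ratios). Per length it went from the highest of the 10 genes in EV to the lowest in KIF20A OE, where its range overlapped that of IRS2.

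IGF1R, on chromosome 15, and INSR, on chromosome 19, encode the signaling receptors. IGF1R was 4.09 to 4.84 TPM over the 6 Hs578T libraries and 5.95 to 7.24 TPM over the 6 HCC70 libraries, with fractions that overlapped in both lines (adjusted p = 0.75 and 0.94, limma). INSR was almost undetected in Hs578T, with 0, 1 and 0 reads in non-BCSCs and 4, 3 and 1 reads in BCSCs, and was below the minimum for testing. In HCC70 it was 4.90, 5.21 and 5.76 TPM in non-BCSCs and 7.02, 6.56 and 6.46 TPM in BCSCs, so every BCSC library was higher. This difference of 0.29 (SE 0.08) did not pass limma (adjusted p = 0.098) and passed DESeq2 on recovered reads (adjusted p = 0.028), and its adjusted p ran from 0.028 to 0.31 across all alternatives. Over all genes, 2.83% of 13218 passed in HCC70, and 0 of the 7 members tested did.

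IGF2R, on chromosome 6, was the most abundant receptor per length in every group of the sorted lines. It was 87.7 to 95.8 TPM over the Hs578T libraries, where the fractions overlapped (adjusted p = 0.69, limma). In HCC70 it was 60.7, 66.9 and 69.2 TPM in non-BCSCs and 75.7, 71.6 and 70.3 TPM in BCSCs, groups that did not overlap and did not pass the test (0.14, SE 0.06, adjusted p = 0.22).

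Between the libraries labelled KIF20A OE and EV, the receptor genes showed smaller ratios than the IRS genes or IGFBP3. IGF1R was 98.4, 86.8 and 126 CPM in EV and 107, 81.2 and 82.3 CPM in KIF20A OE. INSR was 41.7, 32.3 and 48.2 CPM in EV and 42.4, 44.2 and 47.6 CPM in KIF20A OE. Both genes overlapped between the groups, and the ratio of means for INSR was 1.10 as deposited and 0.85 after scaling by the median of ratios, so its direction depended on the scaling. IGF2R was 299, 219 and 228 CPM in EV and 176, 141 and 120 CPM in KIF20A OE, and these groups did not overlap. In the depletion experiment IGF1R, INSR and IGF2R overlapped between sgCtrl and KIF20A sg1, with adjusted p of 0.915 to 0.996 (limma).

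IRS4, on chromosome X from 108719946 to 108736563, encodes an adaptor that binds PI3K and is little expressed outside development and a few adult tissues. It was 1750, 1219 and 1744 CPM in the KIF20A OE libraries and had 0 reads in each EV library. Taking 3 reads in an EV library as the limit that a count of 0 allows (0.143 to 0.176 CPM), the lowest KIF20A OE library was at least 6908-fold higher. All 6 libraries of the depletion experiment also had 0 reads, which allows at most 0.0588 to 0.0724 CPM, and neither sorted line has a row for IRS4. Such limits cover counting error only. By mean CPM in KIF20A OE, IRS4 ranked 20 among 15260 symbols, and among the 409 of these at 0 CPM in every EV library 0 had a higher mean. XIST, at 0.118 CPM in EV replicate 3, fell outside that cut and was 2573, 1679 and 1557 CPM in KIF20A OE. Since IRS4 was chosen with these values known, its rank is a description only.

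IRS1, on chromosome 2, and IRS2, on chromosome 13, are the adaptors that most tissues use. In EV, IRS1 was 156, 130 and 129 CPM, and in KIF20A OE it was 12.7, 10.1 and 17.0 CPM. IRS2 was 123, 113 and 135 CPM in EV and 6.32, 12.0 and 10.1 CPM in KIF20A OE. Neither gene overlapped between the groups, and the EV mean was 10.4 times the KIF20A OE mean for IRS1 and 13.0 times for IRS2. Both were low in the libraries where IRS4 was high.

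**Figure D2:**
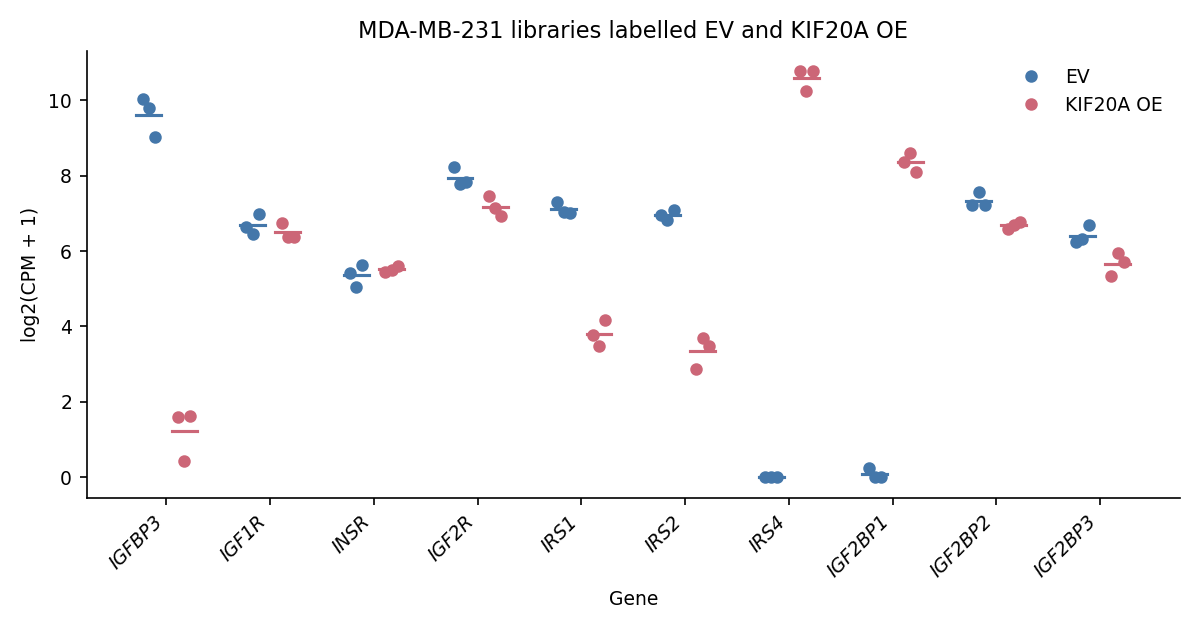
Each point is log2(CPM + 1) of a gene in 1 library of the overexpression experiment (blue EV, red KIF20A OE), and lines are means of 3. IRS4 and IGF2BP1 sit at or near 0 in EV and high in KIF20A OE, whereas IGFBP3, IRS1 and IRS2 run the other way and IGF1R and INSR overlap.

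No such pattern was seen with KIF20A sg1. IRS1 was 232, 196 and 160 scaled reads in sgCtrl and 195, 212 and 165 in KIF20A sg1 (adjusted p = 0.97, limma). IRS2 was 66.1, 66.0 and 55.7 in sgCtrl and 65.8, 55.7 and 68.0 in KIF20A sg1 (adjusted p = 0.99). Both genes overlapped between the groups. In the sorted lines IRS1 was the main adaptor. It was 18.6, 19.5 and 19.3 TPM in Hs578T non-BCSCs and 17.3, 18.2 and 17.9 TPM in BCSCs, which did not overlap and did not pass the test (adjusted p = 0.27). In HCC70 it was 5.94 to 7.11 TPM over both fractions (adjusted p = 0.56). IRS2 has no row in Hs578T and was 0.53 to 0.87 TPM, or 42 to 62 reads, in HCC70.

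The makeup of the IRS family was described per canonical transcript length. IRS1 made up 90.0% ± 2.0 (SD, n = 3) of the IRS genes in HCC70 non-BCSCs and 72.1% ± 2.1 in sgCtrl. In EV, IRS2 held 51.7% ± 3.7 and IRS1 the rest. In KIF20A OE, IRS4 held 98.9% ± 0.3, or 97.4% ± 0.7 when all annotated exon bases were used as length, and the sum over the 3 genes was 242 CPM per kb against 29.3 CPM per kb in EV. IRS1 and IRS2 are neighbours in the order of levels in EV and in KIF20A OE, and their ranges overlapped in both.

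**Figure D3:**
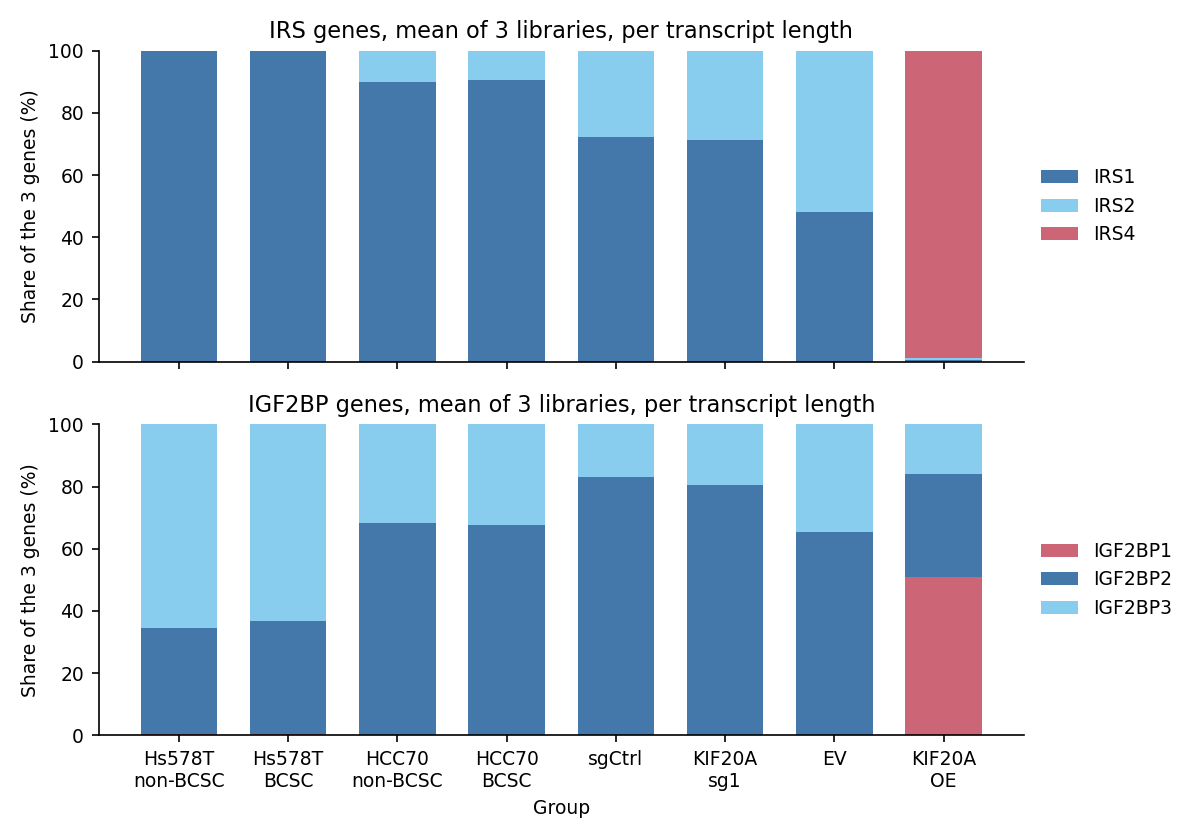
Bars give each gene's mean share (%, n = 3) of the summed level per transcript length of the IRS genes (top) and the IGF2BP genes (bottom) in 8 groups. In KIF20A OE, IRS4 fills 98.9% and IGF2BP1 50.9% of their families. IGF2BP1 is under 1% in the other groups and IRS4 is at 0 in EV, sgCtrl and KIF20A sg1, while the tables of the sorted lines have no row for IRS4.

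IGF2BP1, on chromosome 17 from 48997385 to 49056145, was the other gene with high values in the KIF20A OE libraries. It was 326, 385 and 275 CPM there and 0.19, 0 and 0 CPM in EV. These came from 18877 reads in KIF20A OE and 4 reads in EV, all 4 of them in EV replicate 1. Other groups were not empty of it. Hs578T had 25, 38 and 45 reads in non-BCSCs and 44, 27 and 46 reads in BCSCs, or 0.23 to 0.39 TPM, sgCtrl had 6, 4 and 0 reads, and 1 HCC70 library had 1 read. All KIF20A sg1 libraries had 0 reads.

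IGF2BP2, on chromosome 3, and IGF2BP3, on chromosome 7, were expressed in every group. Between EV and KIF20A OE, IGF2BP2 went from 147, 189 and 149 CPM to 95.9, 103 and 109 CPM, and IGF2BP3 from 74.0, 78.6 and 102 CPM to 39.3, 60.5 and 51.6 CPM. Neither gene overlapped between the groups. Of the 10 members, 2 were higher, 6 were lower and 2 overlapped in this comparison, in which 74.1% of all 15265 genes had groups that did not overlap. The genes were chosen with this contrast in view, so the count is given without further reading.

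IGF2BP3 was the one member that separated in the depletion experiment. It was 23.4, 24.9 and 22.8 scaled reads in sgCtrl and 29.7, 26.2 and 35.4 in KIF20A sg1. The difference of 0.34 (SE 0.15) did not pass limma (adjusted p = 0.69), and 13% of all genes had groups that did not overlap. In this experiment 0 of the 8 members tested and 0% of 12852 genes passed limma, while 899 genes had an unadjusted p under 0.05, edgeR called 0 and DESeq2 called 16 genes, with 0 members among them. In the sorted lines IGF2BP3 was 58.9 to 68.9 TPM in Hs578T and 18.4 to 21.2 TPM in HCC70, and IGF2BP2 was 33.3 to 35.0 TPM and 39.9 to 43.2 TPM. The fractions overlapped for both genes in both lines (adjusted p of 0.345 to 0.868, limma).

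The share of each paralog is given per canonical transcript length. IGF2BP3 held 65.4% ± 1.5 of the family in Hs578T non-BCSCs and 31.8% ± 1.0 in HCC70 non-BCSCs. IGF2BP2 held 83.1% ± 0.2 in sgCtrl and 65.5% ± 5.7 in EV. In KIF20A OE, IGF2BP1 held 50.9% ± 4.8, or 57.3% ± 4.8 with all exon bases as length. IGF2BP3 shares 1521 exon bases with MALSU1 on the opposite strand, and IRS4 shares 439 with IRS4-AS1. IGF2R shares 571 with CHP1P2 on the same strand, which counting by strand would not separate. The libraries were stranded, but whether counting used strand is not given in the sources used here.

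The genes nearest to IRS4 and IGF2BP1 over the 6 libraries of the overexpression experiment were found by Euclidean distance of centred log2(CPM + 1). For IRS4 these were XIST (0.63), AMOT (1.94), CDKN2A (2.84), IGF2BP1 (2.96) and SLC16A1 (3.31). For IGF2BP1 they were SLC16A1 (0.47), CDKN2A (0.52), NID1 (0.80), HOXD13 (1.25) and UCHL1 (1.43). CDKN2A, a tumor suppressor gene known to be deleted in MDA-MB-231, was at 0 CPM in all 3 EV libraries and 276, 336 and 353 CPM in KIF20A OE.

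Other genes of the pathway were followed in 6 lists of 109 genes. In Hs578T, 12 of the 100 genes tested passed (4 higher, 8 lower), and 7 of these 12 were among the 12 tested ligands, binding proteins and proteases, whose median log2 difference was -0.17 beside -0.01 over all genes. Over all genes 7.15% passed, 386 higher and 567 lower, and after scaling by the median of ratios the split was 620 and 573 over all genes and 7 and 7 in the lists. STC2, a secreted inhibitor of the IGFBP protease pappalysin, rose from 714, 717 and 712 TPM to 911, 940 and 894 TPM (0.36, SE 0.04, limma, adjusted p = 0.0027). IGFBP1, another binding protein, rose from 5.35, 4.35 and 4.91 TPM to 7.87, 9.38 and 8.11 TPM (adjusted p = 0.0053). STC1 fell from 95.4, 95.7 and 87.8 TPM to 73.5, 68.8 and 72.8 TPM (adjusted p = 0.0066). HTRA1, a secreted protease that can cut IGFBPs, fell from 153, 155 and 147 TPM to 114, 119 and 124 TPM (adjusted p = 0.0058). IGFBP4 fell by 0.26 and PAPPA, which encodes pappalysin-1, rose by 0.24 on the log2 scale. IGFBP5, outside the rule for named genes because its level is low, fell from 2.56, 2.36 and 2.37 TPM to 1.06, 1.05 and 1.23 TPM (-0.70, SE 0.09, adjusted p = 0.0056). In HCC70 it was 1.29, 1.43 and 1.41 TPM in non-BCSCs and 0.194, 0.194 and 0.233 TPM in BCSCs, below the minimum for testing. The IGFBP4 call was lost without non-BCSC replicate 2 or 3 or BCSC replicate 1 (adjusted p up to 0.099), and the PAPPA call without any library other than BCSC replicate 2 (up to 0.15), with no minimum level (0.064) and with the replicate block (0.089).

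**Figure D4:**
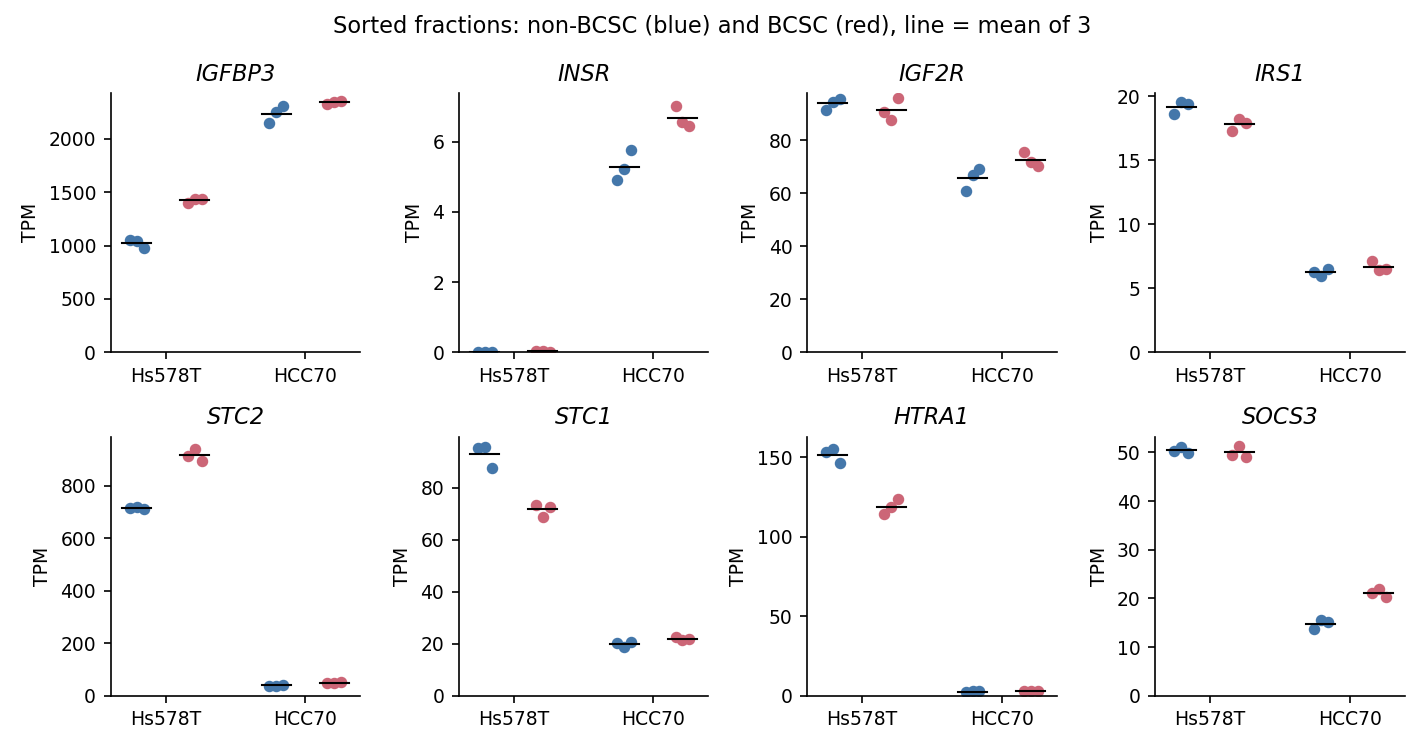
Each point is the TPM of a gene in 1 library of sorted Hs578T or HCC70 (blue non-BCSC, red BCSC), lines are means of 3 and each axis starts at 0. IGFBP3 and STC2 rise and STC1 and HTRA1 fall in Hs578T BCSCs, and SOCS3 is higher in BCSCs of HCC70.

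Downstream of the receptor, the adaptor GRB14, which inhibits the insulin receptor, rose in Hs578T BCSCs (0.39, SE 0.06, adjusted p = 0.0089, limma). PIK3R1, a regulatory subunit of PI3K, fell by 0.31, and TBC1D4, which acts in glucose transporter traffic, fell by 0.28. CDK6, a cell cycle kinase gene from the list of IGF2BP partners and bound transcripts, fell by 0.31. The calls of PIK3R1, TBC1D4 and CDK6 were lost without non-BCSC replicate 1 or 2 or BCSC replicate 1, in different combinations, with adjusted p up to 0.095. H19, an imprinted noncoding RNA that is also outside the rule, gave -0.70 (adjusted p just under 0.05) and lost its call in 9 of 12 alternatives (up to 0.15). In HCC70, 3 of 91 genes passed, all higher in BCSCs, where 2.83% of all genes passed and 301 of those 374 were higher. SOCS3, a feedback inhibitor at the receptor, rose from 13.7, 15.5 and 15.2 TPM to 21.2, 21.9 and 20.3 TPM (0.49, SE 0.07, adjusted p = 0.016). STC2 rose by 0.34 (adjusted p = 0.021) and MTOR by 0.25 (adjusted p = 0.047). Leaving out 1 library lost SOCS3 without any BCSC replicate (adjusted p up to 0.093), STC2 without non-BCSC replicate 2 or any BCSC replicate (up to 0.11) and MTOR without any of the 6 libraries (up to 0.21). The replicate block also ended the calls of SOCS3 (0.051), STC2 (0.054) and MTOR (0.10), and that of MTOR was lost with no minimum level (0.061) and after scaling by the median of ratios (0.072). In the depletion experiment 0 of 94 genes passed limma.

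Of the pathway genes tested in KIF20A OE against EV, 78 passed and 23 did not (49 higher, 29 lower), where 46.2% of all genes were higher and 23.4% lower. After scaling by the median of ratios the split was 34 higher and 40 lower, and over all genes it went from 7055 higher and 3579 lower to 5129 and 5007, since the median log2 difference of all genes was 0.37 as deposited and 0.03 after scaling.

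Among ligands, binding proteins and proteases, 4 rose and 8 fell of 12 tested, and the split was the same after scaling, with a list median of -3.52. IGFBP4 fell from 2973, 2248 and 2171 CPM to 11.1, 15.1 and 7.33 CPM (adjusted p = 1.11e-07, limma). IGFBP1 was 154, 168 and 121 CPM in EV and 0 in every KIF20A OE library. IGFBP7 fell from 245, 206 and 291 CPM to 2.38, 3.02 and 7.33 CPM, and STC1 and PAPPA fell as well. IGFBP2, a binding protein of fetal tissues, was 0 in every EV library and 45.5, 85.6 and 73.7 CPM in KIF20A OE. STC2 rose from 0.14, 0.19 and 0.47 CPM to 64.9, 100.04 and 90.0 CPM, and IGFBP5 and IDE, which encodes an insulin-degrading protease, rose too.

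Of the adaptors and inhibitors at the receptor, 6 rose and 10 fell of 22 (5 and 13 after scaling). SOCS3 fell from 58.6, 69.5 and 54.8 CPM to 7.51, 3.88 and 5.25 CPM, and GRB10, GAB2, SOS2 and SHC1 fell, while GRB14, CRKL, GAB1, RACK1 and DOK4 rose. The DOK4 call was lost with edgeR (adjusted p = 0.067). Of the PI3K, AKT, mTOR and FOXO list, 17 rose and 6 fell of 32 (11 and 9 after scaling). PIK3CA, a catalytic subunit of PI3K, fell from 62.5, 70.2 and 75.1 CPM to 26.7, 21.1 and 27.6 CPM, and PIK3CD, RICTOR and RHEB fell. PIK3R3, another regulatory subunit, rose from 10.0, 12.0 and 19.0 CPM to 47.2, 50.9 and 58.5 CPM, and FOXO1, PHLPP2, MLST8 and DEPTOR rose.

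For mannose 6-phosphate transport, in which IGF2R acts, 4 genes rose and 1 fell of 8 (3 and 3 after scaling). GGA2, an adaptor for sorting at the Golgi, rose from 73.3, 79.7 and 68.2 CPM to 167, 184 and 182 CPM, and SORT1 fell from 217, 145 and 169 CPM to 95.1, 97.1 and 113 CPM. The call of GGA3 was lost after scaling and with both count tests (adjusted p of 0.20 to 0.29). Of the partners and bound transcripts of the IGF2BP proteins, 8 rose and 4 fell of 14 (4 and 5 after scaling). LIN28B, an oncofetal RNA-binding protein gene, was 0 in every EV library and 68.3, 101.0 and 59.3 CPM in KIF20A OE. HMGA2 fell from 87.0, 125 and 98.1 CPM to 18.3, 27.1 and 19.8 CPM, and YBX1 lost its call after scaling and with both count tests (adjusted p of 0.17 to 0.22). Of the genes for m6A, the mRNA mark that IGF2BP proteins can read, 10 rose and 0 fell of 13 (7 and 2 after scaling), among them RBM15, METTL3 and YTHDF2.

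**Figure D5:**
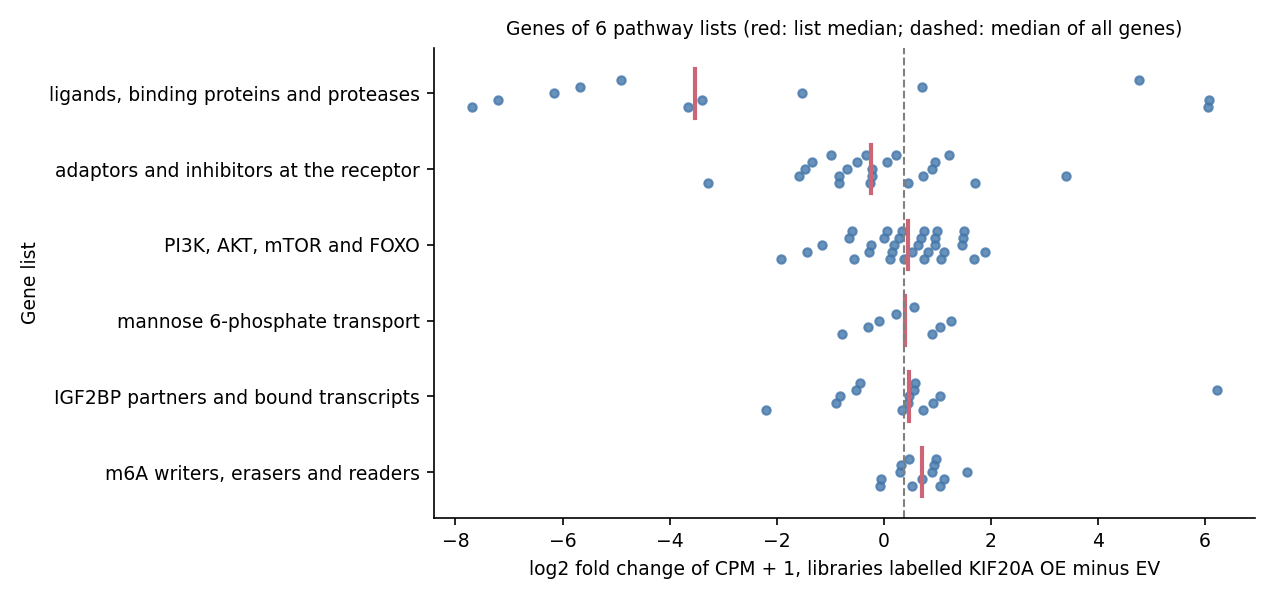
Each point is the log2 fold change of 1 gene (KIF20A OE minus EV, CPM + 1) in 6 pathway lists, red lines are list medians and the dashed line is the median of all genes, 0.37. The list of ligands, binding proteins and proteases lies lowest, with a median of -3.52.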

How the data were processed

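Poly-A RNA of 24 libraries was sequenced on stranded, paired-end libraries. The submitters' processing notes name HISAT2 2.0.5, featureCounts 1.5.0-p3 and GRCh38, and the annotation is not given in the sources used here. For the sorted lines the authors deposited TPM. The deposited table of the depletion experiment, called CPM by the authors, holds a signal, reads divided by 1 factor per library. The deposited overexpression table holds CPM made by the authors. Within a gene, values were whole multiples of what 1 read is worth (tolerance 0.1 reads), so reads were recovered, and used for alternatives only. In simulated TPM, 97.9% of genes came back exactly and the rest divided by a common divisor. 0 sample columns were left unused.

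Genes with a mean of at least 1 were tested within each table by limma 3.58.1 in R 4.3.3 with a trend, on log2(value + 1), two-sided, with Benjamini-Hochberg adjustment over all genes tested, so fold changes of low genes are understated. An interaction of fraction and cell line was fitted over the genes tested in both sorted lines. Alternatives were a pseudocount of 0.1, no minimum or a mean of at least 5, scaling by the median of ratios, a replicate block, count tests on the recovered reads (DESeq2 1.42.0, edgeR 4.0.16), and each library left out in turn. The scripts were tested on simulated data. The labels call replicates biological triplicates, and chi-square per degree of freedom between replicates was 2.02 to 131, so none was taken as a duplicate.

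The members and lists were chosen with earlier results of these data known. Named pathway genes were up to 5 higher and 5 lower per list and comparison, by size of change, with an adjusted p under 0.05, groups that do not overlap and a mean of at least 5 in a group. A gene that this rule names is not reported here. Locations, lengths and exon overlaps come from GENCODE 44 on GRCh38, and promoters from RefSeq, matched by symbol for 9 of the 10 members. Older symbols were updated through RefSeq synonyms.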

Additional observations from a re-analysis of the deposited data

Results flagged for a closer look

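The difference of the BCSC effect between the sorted lines (HCC70 minus Hs578T, log2 scale of TPM + 1, interaction in limma over 12 libraries) passed an adjusted p of 0.05 for 9 genes of the axis and its lists. The lines come from tables normalized separately, so cell line and table cannot be told apart in any of them. For IGFBP3 it was -0.41 (adjusted p = 0.0082), from a change of 0.48 in Hs578T and 0.07 in HCC70, and the call was lost with the replicate block (adjusted p = 0.058). STC1, with 0.52 (adjusted p = 0.0030), HTRA1, with 0.53 (adjusted p = 0.0050), and SOCS3, with 0.50 (adjusted p = 0.0033), stayed past the threshold without any 1 library and with the replicate block. The difference was 0.54 for DOK4, -0.36 for PAPPA, 0.30 for MTOR, 0.30 for PIK3R1 and 0.35 for SHC1, with adjusted p of 0.024 to 0.047. These 5 calls were lost when single libraries were left out, 5 of 12 for DOK4, 10 of 12 for MTOR, PIK3R1 and SHC1, and 11 of 12 for PAPPA, with adjusted p up to 0.11. With the replicate block DOK4 passed (0.046), and MTOR (0.083), PAPPA (0.099), PIK3R1 (0.087) and SHC1 (0.072) did not. HTRA1 was 147 to 155 TPM in Hs578T non-BCSCs and 2.20 to 2.69 TPM in HCC70 non-BCSCs, so its change in HCC70 rests on a low level.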

How the results depend on the processing

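Counts of members called under the alternatives changed in 2 cases. In HCC70, 1 member (INSR) passed DESeq2 on recovered reads, where limma called 0. For the difference of the BCSC effect between lines, the fit with the replicate block called 0 members, where limma without it called 1. In Hs578T the count was 1 under every alternative and in the depletion experiment it was 0. Pathway genes called in KIF20A OE against EV numbered 78, and 72 to 79 under the alternatives. With the replicate block the counts were 1 in Hs578T, 0 in HCC70, 0 in the depletion experiment and 76 pathway genes in KIF20A OE against EV. Same-numbered libraries correlated at -0.16 to 0.19, not over 0.1 in every pair of any comparison. Such correlations, of deviations from means of 3 libraries, cannot show whether same-numbered samples were paired, and the sample titles give only a number. Every library of the overexpression experiment did correlate best with its own number, a hint from the data and not the design. Of 77 single-gene results followed, 58 kept their direction and side of the threshold under every alternative, 19 crossed the threshold under some, and 0 reversed. Over all genes, the 953 calls in Hs578T ranged from 342 (without non-BCSC replicate 2) to 1806 (edgeR) under the alternatives, the 374 in HCC70 from 32 (without BCSC replicate 1) to 1148 (DESeq2), and the 830 for the difference between lines from 291 (without Hs578T non-BCSC replicate 2) to 1224 (without Hs578T BCSC replicate 3). The depletion experiment gave 144 calls without sgCtrl replicate 3 and 5 without KIF20A sg1 replicate 2, with 0 members among them. With 3 libraries per group, and 15971297 reads in the shallowest, genes at 3 reads or fewer give only a limit.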

Other observations

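The controls of the MDA-MB-231 experiments, from tables normalized separately and not tested against each other, differed in several members. IGFBP3 was 57.6 to 83.1 scaled reads in sgCtrl and 517 to 1046 CPM in EV. IGF2BP3 was 22.8 to 24.9 in sgCtrl and 74.0 to 102 CPM in EV, IRS2 was 55.7 to 66.1 and 113 to 135, and IGF1R was 41.4 to 50.6 and 86.8 to 126. IRS1 was 160 to 232 in sgCtrl and 129 to 156 CPM in EV, so its ranges did not overlap. The ranges of INSR and of IGF2R did overlap.

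Ligand genes were low in every table. In the depletion experiment IGF1, IGF2 and INS had 0 reads in all 6 libraries. In Hs578T IGF1 and IGF2 were at most 0.033 and 0.024 TPM. IGF1 was 0.135 to 0.229 TPM over the HCC70 libraries. In the overexpression experiment IGF1 was at most 0.118 CPM in EV and 0.09 to 0.63 CPM in KIF20A OE, and IGF2 was 0 in EV and 0.09 to 0.59 CPM in KIF20A OE.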
